A study of Mus musculus with 12 samples.

Results

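The bone morphogenetic protein (BMP) signalling genes described here are 35 listed mouse genes that encode the ligands, receptors, Smad proteins, target genes and extracellular antagonists of the BMP pathway. The list held 8 ligands, 6 receptors, 4 signal-carrying Smads, 2 inhibitory Smads, 6 target genes, 8 antagonists or extracellular modulators and 1 pseudoreceptor. Of the 35 genes, 34 were measured, among 18193 genes in all. The ligand gene Bmp3 was not analysed here. Each gene was represented by 1 probe set (a group of short probes that reads 1 transcript), the one with the highest mean over all arrays among the probe sets naming only that gene. The list was drawn by known role, with earlier results of these data known.

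Expression was measured with 12 one-colour oligonucleotide arrays for the mouse genome, in 6 groups of 2 arrays. Groups were either homozygous Lmx1b knockouts (Lmx1b -/-, here KO) or wild type at it (Lmx1b +/+, here WT), at 11.5, 12.5 or 13.5 days post coitum (dpc), and all embryos carried the C57BL/6 strain label. Lmx1b encodes a LIM homeodomain protein that specifies dorsal identity in the limb mesenchyme, and the study asked which genes differ in limbs that lack it. Limb bud and girdle were taken at 11.5 and 12.5 dpc, whereas the 13.5 dpc samples were distal limb only, from the zeugopod to the tip. The labels name no Cre or conditional allele, so the loss is taken to hold in every tissue of KO embryos. Each array held RNA pooled from several limbs, with forelimbs and hindlimbs both named by the series text but not their mix in a pool, and replicate pools came from different embryos. Values are averages over dorsal and ventral tissue. The sources disagree on how many limbs were pooled at 12.5 dpc. Each stage had its own scan series in the labels, so a change with stage cannot be told apart from one between scan series or, at 13.5 dpc, from the different dissection. All levels below are RMA values on the log2 scale, on which a difference of 1 is a doubling, and a level is compared only between arrays for 1 probe set.

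BMPs are secreted ligands that bring together type I and type II serine/threonine kinase receptors. The type I receptor phosphorylates Smad1, Smad5 and Smad9, which enter the nucleus with Smad4 and act on target genes such as the Id and Msx genes, while Smad6 and Smad7 are feedback inhibitors and Noggin, Gremlin and Chordin trap ligand outside the cell. In the limb bud this pathway acts on the apical ectodermal ridge, interdigital cell death, cartilage condensation and joints, and BMP signalling in the ventral ectoderm lies upstream of En1, which keeps Wnt7a and hence Lmx1b dorsal.

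The targeted gene separated the genotypes on every array. Lmx1b lay between 9.28 and 10.27 in WT and between 5.60 and 8.88 in KO, with the highest KO values at 13.5 dpc (7.48 and 8.88). Limb mesenchyme markers were all present, with 13 of 13 above the median of all values (6.28). The hindlimb factor Pitx1 lay at 5.76 to 6.28 on every array of 11.5 and 12.5 dpc and at 9.88 to 10.30 at 13.5 dpc, in both genotypes, and Tbx4 at 7.40 to 8.17 and then 10.0 to 10.12. A different mix of forelimbs and hindlimbs at 13.5 dpc can therefore not be told apart from a change between 12.5 and 13.5 dpc. A pair of KO arrays stood apart from their replicates. In KO replicate 2 at 12.5 dpc the stress gene Hspa1a lay at 9.36, against 4.80 to 5.71 elsewhere, and the summed skeletal muscle markers at 13.17, against 13.98 to 14.34 on the other 12.5 dpc arrays. In KO replicate 2 at 13.5 dpc the embryonic globin gene Hbb-bh1 lay at 12.91 (8.40 to 10.48 on the other 13.5 dpc arrays) and the proximal limb gene Meis1 at 9.46 (7.01 to 7.76). Between replicates the BMP genes differed by a median of 0.25 log2 units in KO at 12.5 dpc and by 0.08 to 0.15 in the other 5 groups. Some counts below are therefore also given without these KO arrays. The others, among them counts of signs, of unadjusted p and of marker genes, use all arrays.

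Promoter sequence was used for 25 of the 34 measured genes, as 29 windows of 250 bases upstream of a transcript start (RefSeq, GRCm38.p6). The 5 shown belong to target and feedback genes discussed below and to Grem1, and each is written 5′ to 3′ along the gene's own strand. Capitals mark GGCGCC (a palindrome, the GC-rich element read by BMP Smads), GTCT on either strand (the Smad box, also read as AGAC) and TAATTA (a palindrome, a homeodomain-type core). The Id3 window is chr4:136143572-136143821 on the plus strand, that of Msx1 is chr5:37824586-37824835 on the minus strand and that of Msx2 is chr13:53472781-53473030 on the minus strand. The Smad6 window is chr9:64022060-64022309 on the minus strand and that of Grem1 is chr2:113758649-113758898 on the minus strand.
Id3: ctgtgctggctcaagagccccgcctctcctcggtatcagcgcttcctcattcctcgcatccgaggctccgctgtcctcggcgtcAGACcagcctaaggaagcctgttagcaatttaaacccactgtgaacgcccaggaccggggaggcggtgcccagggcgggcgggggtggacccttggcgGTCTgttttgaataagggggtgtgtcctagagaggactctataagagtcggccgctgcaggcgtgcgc
Msx1: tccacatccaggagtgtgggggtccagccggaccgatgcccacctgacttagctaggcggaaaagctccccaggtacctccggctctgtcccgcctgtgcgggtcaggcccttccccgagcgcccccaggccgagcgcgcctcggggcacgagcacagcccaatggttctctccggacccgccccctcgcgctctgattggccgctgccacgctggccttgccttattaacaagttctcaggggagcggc
Msx2: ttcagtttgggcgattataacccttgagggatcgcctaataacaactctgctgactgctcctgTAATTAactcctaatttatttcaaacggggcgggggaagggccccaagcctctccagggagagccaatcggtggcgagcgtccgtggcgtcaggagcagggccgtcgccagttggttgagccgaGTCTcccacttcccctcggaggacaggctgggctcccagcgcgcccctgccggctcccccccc
Smad6: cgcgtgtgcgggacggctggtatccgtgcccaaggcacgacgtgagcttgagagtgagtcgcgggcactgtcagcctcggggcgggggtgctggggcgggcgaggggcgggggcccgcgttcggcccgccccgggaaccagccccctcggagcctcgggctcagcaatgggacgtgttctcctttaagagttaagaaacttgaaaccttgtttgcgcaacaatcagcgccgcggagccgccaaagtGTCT
Grem1: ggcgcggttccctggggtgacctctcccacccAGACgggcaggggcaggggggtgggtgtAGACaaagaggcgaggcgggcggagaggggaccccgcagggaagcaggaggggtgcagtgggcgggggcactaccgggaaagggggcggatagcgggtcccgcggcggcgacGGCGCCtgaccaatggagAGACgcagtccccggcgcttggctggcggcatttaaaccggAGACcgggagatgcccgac
GGCGCC stood in 9 of the 29 windows (31%), against 9.59% of all 32851 windows of this length, and the BMP gene windows had a median GC content of 68%, against 52.4%. GTCT or AGAC stood in 23 of 29 (79.3%; 82.9% of all windows), so this short motif is common everywhere. TAATTA stood in 1 of 29, that of Msx2 (3.45%; 4.84% of all windows). The motifs do not overlap one another in the windows shown. Of the windows shown, Grem1 held 1 GGCGCC and 4 Smad boxes, Id3 held 2 Smad boxes, Smad6 and Msx2 held 1 each, and Msx1 held no match to any of the motifs. A match describes letters only, and none of the arrays measured binding.

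Between genotypes no BMP gene passed the test. In the mean over stages most lay slightly lower in KO, but at 12.5 dpc the share was near that of all genes. Averaged over the 3 stages, 27 of 34 had a KO minus WT difference below 0 (79.4%, against 58.6% of all genes), with a median of -0.06 log2 units, against -0.016 over all genes. The difference was below 0 in 5 of 7 ligands, 4 of 6 receptors, 3 of 4 Smads, both inhibitory Smads, 6 of 6 targets, 6 of 8 antagonists and modulators, and the pseudoreceptor Bambi. The range ran from -0.93 for the antagonist Nog to 0.19 for the receptor gene Acvr2b. By stage, 25 of 34 lay below 0 at 11.5 dpc (73.5%, against 60.3% of all genes). At 12.5 dpc 18 did (52.9%, against 54.3%), with a median of -0.01. At 13.5 dpc 26 did (76.5%, against 52.6%), with a median of -0.17.

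Differences were tested with limma, with Benjamini-Hochberg adjustment over all 18193 genes and a threshold of 0.05. In the mean over stages 0 of 34 BMP genes passed (background 0.203% of all genes, 37 genes), while 6 had an unadjusted p under 0.05 (6.87% of all genes), all lower in KO. At 11.5 dpc 0 passed (background 0.0165%, 3 genes) and 0 had an unadjusted p under 0.05 (1.64% of all genes). At 12.5 dpc 0 passed (background 0.0385%, 7 genes) and 2 had an unadjusted p under 0.05 (10.9% of all genes), Grem1 and Smad9, both lower. At 13.5 dpc 0 passed (background 0.0275%, 5 genes) and 8 had an unadjusted p under 0.05 (5.9% of all genes), all lower. With 2 arrays a group the median SE of a BMP gene's difference was 0.14 at a stage and 0.08 over the stages. Differences several times as large as these errors could still fail after adjustment. The -0.60 of Bmpr1b at 13.5 dpc, described below, did not pass (limma adjusted p = 0.0874). In bulk tissue, fewer cells of a type and less RNA per cell cannot be told apart.

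**Figure D1:**
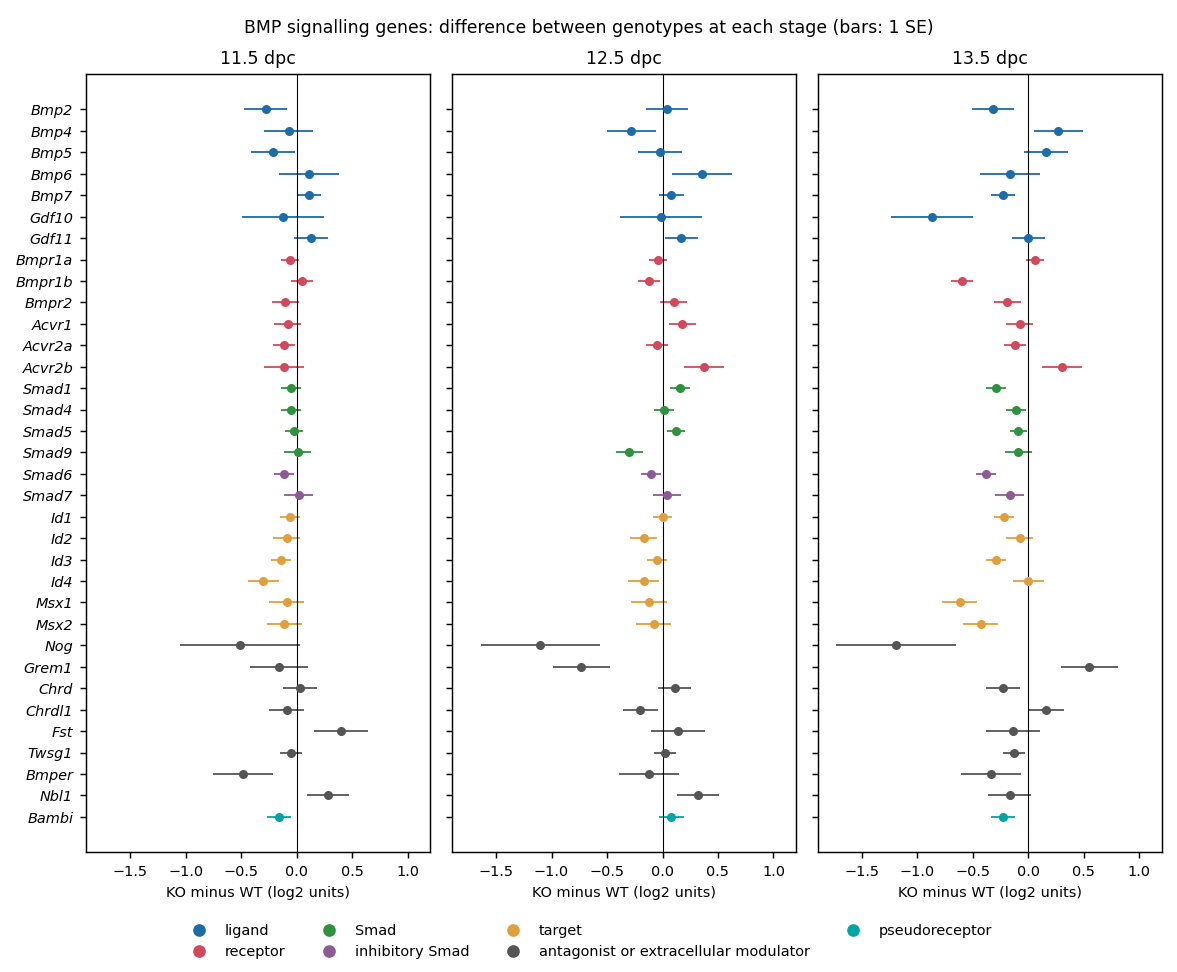
KO minus WT difference (log2 units, horizontal axis) of the 34 measured BMP signalling genes at 11.5, 12.5 and 13.5 dpc, with points coloured by role and bars of 1 SE from the limma fit (2 arrays a group). Points lie left of 0 for 25 genes at 11.5 dpc (60.3% of all genes), 18 at 12.5 dpc (54.3%) and 26 at 13.5 dpc (52.6%). Nog is farthest left in every panel, and no gene passed the adjusted threshold.

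Among the ligands, the largest difference was that of Gdf10 (probe set 1424007_at), a divergent family member also called Bmp3b. Its level in WT was 9.23 and 9.19 at 11.5 dpc, 10.04 and 9.87 at 12.5 dpc, and 11.26 and 11.46 at 13.5 dpc. In KO it was 9.0 and 9.17, then 10.56 and 9.32, then 11.02 and 9.97. Genotypes overlapped at 12.5 dpc, where the KO arrays lay on both sides of WT, and at 13.5 dpc both KO arrays were below both WT arrays. The difference was -0.87 ± 0.37 at 13.5 dpc (limma adjusted p = 0.829) and -0.33 ± 0.22 over the stages (adjusted p = 0.849). Without KO replicate 2 of 13.5 dpc the first became -0.34, and without both KO arrays that stood apart the second turned to 0.05. The other 6 measured ligands differed by -0.32 to 0.36 at any stage. Bmp2 lay at -0.32 ± 0.19 and Bmp7 at -0.23 ± 0.11 at 13.5 dpc, whereas Bmp4 lay at 0.27 ± 0.22. Bmp6, a dim probe set below the median of all values, had 6.11 and 5.09 in KO and 5.13 and 5.35 in WT at 12.5 dpc. Its KO replicates lay at either side of WT there (0.36 ± 0.27, adjusted p = 0.683), and without both KO arrays that stood apart, a choice made after seeing the data, it was the only BMP gene called at 12.5 dpc (0.87, adjusted p = 0.0473, 0.517% of all genes called).

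Of the receptors, the type II receptor gene Acvr2b (1419140_at) was named for its place among the largest differences at 12.5 dpc. It lay at 9.90 and 9.94 in WT and 9.74 and 9.88 in KO at 11.5 dpc. The levels were 8.94 and 8.89 in WT and 9.07 and 9.50 in KO at 12.5 dpc, and 9.18 and 9.17 in WT and 9.17 and 9.77 in KO at 13.5 dpc. KO replicate 2 was the highest array of its stage at both later stages. The 12.5 dpc difference was 0.37 ± 0.18 (adjusted p = 0.507), and the other 2 probe sets of Acvr2b had -0.17 and -0.04 there. The type I receptor gene Bmpr1b (1437312_at), which cartilage condensations require, is described because its p was the smallest of the 34 genes, a choice made after its values were seen. Bmpr1b lay at 8.86 and 8.87 in WT and 8.84 and 8.98 in KO at 11.5 dpc, and at 9.23 and 9.25 in WT and 9.22 and 9.02 in KO at 12.5 dpc. At 13.5 dpc WT stood at 9.51 and 9.50 and KO at 8.95 and 8.86. Only the last stage separated the genotypes by more than the replicates differed, with both KO arrays near the 11.5 dpc level. That difference was -0.60 ± 0.10 (unadjusted p = 7.69e-05, limma adjusted p = 0.0874). It passed in 3 of 23 alternatives (adjusted p from 0.0286 to 0.999), namely with an intensity-dependent prior (0.0425) and without either of the KO arrays of 12.5 dpc (0.0286). The 2 dimmer probe sets of Bmpr1b gave -0.11 ± 0.17 and -0.22 ± 0.21, so the size rests on 1 probe set. Bmpr1a, Bmpr2, Acvr1 and Acvr2a differed by -0.19 to 0.18 at any stage.

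Among the Smad genes no difference passed the test. Smad4, the shared partner, differed by -0.11 to 0.01 across stages and Smad5 by -0.09 to 0.12. Smad1 lay at 10.30 and 10.27 in WT and 10.18 and 10.29 in KO at 11.5 dpc, and at 9.99 and 9.86 in WT and 10.12 and 10.04 in KO at 12.5 dpc. By 13.5 dpc WT was at 10.52 and 10.45 and KO at 10.23 and 10.17. KO was thus the higher genotype at 12.5 dpc and the lower at 13.5 dpc, without overlap in either. The 13.5 dpc difference was -0.29 ± 0.09 (adjusted p = 0.657), and the other 2 Smad1 probe sets had -0.25 ± 0.11 and -0.32 ± 0.13. Smad9, the other dim member, differed by -0.30 ± 0.12 at 12.5 dpc (adjusted p = 0.415). The inhibitory Smad6 (1422771_at) had 9.63 and 9.73 in WT and 9.51 and 9.62 in KO at 11.5 dpc, then 9.04 and 9.08 against 8.98 and 8.94 at 12.5 dpc. Its 13.5 dpc levels were 9.62 and 9.68 in WT and 9.20 and 9.34 in KO. Every KO array of Smad6 lay below every WT array of its own stage. The difference at 13.5 dpc was -0.38 ± 0.09 (adjusted p = 0.37), and without KO replicate 2 of that stage it was -0.46. Smad7 differed by -0.17 to 0.04.

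All 6 target genes had a mean below WT over the stages, with a median difference of -0.16, and none passed the test. Msx1 (1448601_s_at), a homeobox gene of undifferentiated distal and interdigital mesenchyme, stood at 10.89 and 10.69 in WT and 10.64 and 10.74 in KO at 11.5 dpc. The values at 12.5 dpc were 11.26 and 11.34 in WT and 11.14 and 11.21 in KO. Those at 13.5 dpc were 12.11 and 12.13 in WT and 11.78 and 11.21 in KO. Genotypes overlapped at 11.5 dpc and not at 12.5 or 13.5 dpc, and KO replicate 2 of 13.5 dpc was the farthest from WT. Msx1 lay at -0.62 ± 0.16 at 13.5 dpc (adjusted p = 0.446) and -0.28 ± 0.09 over the stages (adjusted p = 0.508). The 13.5 dpc difference became -0.90 (adjusted p = 0.0182) without KO replicate 1 of that stage and -0.34 (adjusted p = 0.737) without KO replicate 2, so 1 array decides its size and its call. A second Msx1 probe set had -0.71 ± 0.18. Msx2, its paralogue, lay at 9.96 and 10.07 in WT and 9.64 and 9.52 in KO at 13.5 dpc (-0.43 ± 0.16, adjusted p = 0.762). The Id genes encode dominant-negative partners of bHLH factors and are direct Smad targets. Id3 stood at 11.89 and 11.87 in WT and 11.61 and 11.56 in KO at 13.5 dpc (-0.29 ± 0.09, adjusted p = 0.705). Id1 stood at 11.74 and 11.78 in WT and 11.51 and 11.57 in KO (-0.22 ± 0.09, adjusted p = 0.827). Neither overlapped between genotypes at that stage, and their 12.5 dpc differences were -0.05 ± 0.09 and -0.00 ± 0.09. Id2 and Id4 differed by -0.08 ± 0.12 and 0.00 ± 0.14 at 13.5 dpc. Msx2, Id1 and Id3 were named after their values were seen.

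**Figure D2:**
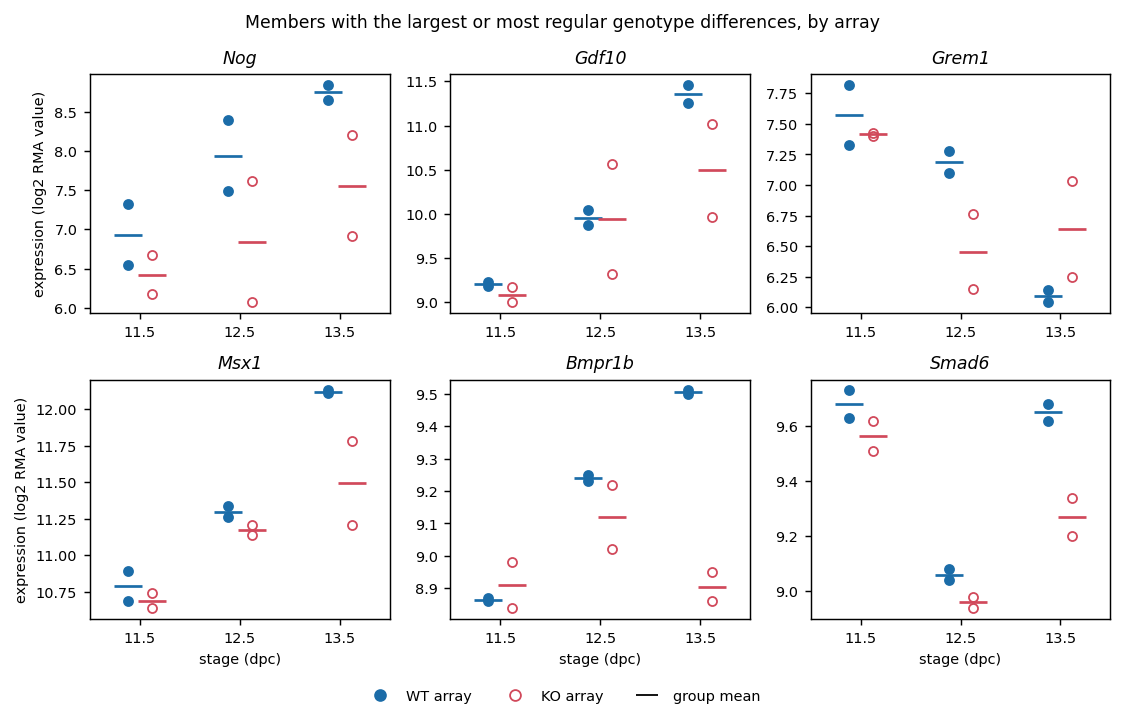
Level of 6 BMP signalling genes on each array (log2 RMA value, vertical axis, its own scale in each panel) against stage (dpc), with filled points for WT, open points for KO and lines at the group means of 2 arrays. At 13.5 dpc both KO arrays lie below both WT arrays for Nog, Gdf10, Msx1, Bmpr1b and Smad6, and above them for Grem1 (6.25 and 7.03 against 6.04 and 6.14).

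The extracellular antagonists held both the largest negative difference of the list and a gene whose difference changed sign with stage. Nog (1422300_at), which encodes the ligand trap Noggin and is made by cartilage condensations, lay at 6.54 and 7.32 in WT and 6.17 and 6.67 in KO at 11.5 dpc. The levels at 12.5 dpc were 7.49 and 8.39 in WT and 7.61 and 6.07 in KO. At 13.5 dpc they were 8.65 and 8.84 in WT and 8.20 and 6.91 in KO. Genotypes overlapped at the earlier stages and separated at 13.5 dpc, and KO replicates differed by more than 1 log2 unit at both later stages. Nog lay at -0.51 ± 0.54 at 11.5 dpc, -1.10 ± 0.54 at 12.5 dpc (adjusted p = 0.493) and -1.19 ± 0.54 at 13.5 dpc (adjusted p = 0.845). Over the stages the difference was -0.93 ± 0.31 (adjusted p = 0.524). It was -0.46 without both KO arrays that stood apart, and -1.19 (adjusted p = 0.0486) without KO replicate 1 of 12.5 dpc.

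Cartilage markers moved with Nog. Of 14 listed cartilage genes, all measured and 12 above the median of all values, 13 were lower in KO at 11.5 dpc and 14 at both later stages, with median differences of -0.22, -0.43 and -0.73. Their summed level ran from 13.31 to 13.50 in KO and 13.50 to 13.56 in WT at 11.5 dpc, from 13.82 to 14.28 and 14.30 to 14.34 at 12.5 dpc, and from 13.87 to 14.39 and 14.62 to 14.68 at 13.5 dpc. The KO array with the lower Nog was also the one with the lower cartilage sum at every stage. At 13.5 dpc the erythroid sum was 14.48 and 15.11 in KO and 14.40 and 14.23 in WT (0 of 8 markers lower in KO), and the proximal limb and girdle sum 12.18 and 13.13 in KO and 12.12 and 12.05 in WT (2 of 9 lower). Skeletal muscle markers were lower in KO for 13 of 13 genes at 12.5 dpc, with sums of 14.34 and 13.17 in KO and 13.98 and 14.11 in WT. These counts use the mean of both KO arrays. At 12.5 dpc KO replicate 2 lay below replicate 1 for 12 of 13 muscle and 14 of 14 cartilage markers. At 13.5 dpc it did for 14 of 14 cartilage and 2 of 13 muscle markers. Other lists were lower in KO at 13.5 dpc by smaller medians. Endothelium was lower for 9 of 9 markers (median -0.11, sums of 11.61 and 11.69 in KO and 11.77 and 11.75 in WT), and for 8 of 9 at 11.5 dpc. Macrophage markers were lower for 8 of 8 (median -0.20, sums of 10.71 and 10.77 in KO and 10.95 and 10.91 in WT), and surface ectoderm markers for 10 of 13 (median -0.27, sums of 12.89 and 12.80 in KO and 13.23 and 13.14 in WT). At 13.5 dpc cartilage, endothelium, macrophage and surface ectoderm markers were thus mostly lower in KO, as most BMP genes were. Erythroid (median 0.63) and proximal limb and girdle markers (median 0.53) were mostly higher. Skeletal muscle markers were mixed there (6 of 13 lower, median 0.32). The part of these lists in the differences of the BMP genes was not tested.

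**Figure D3:**
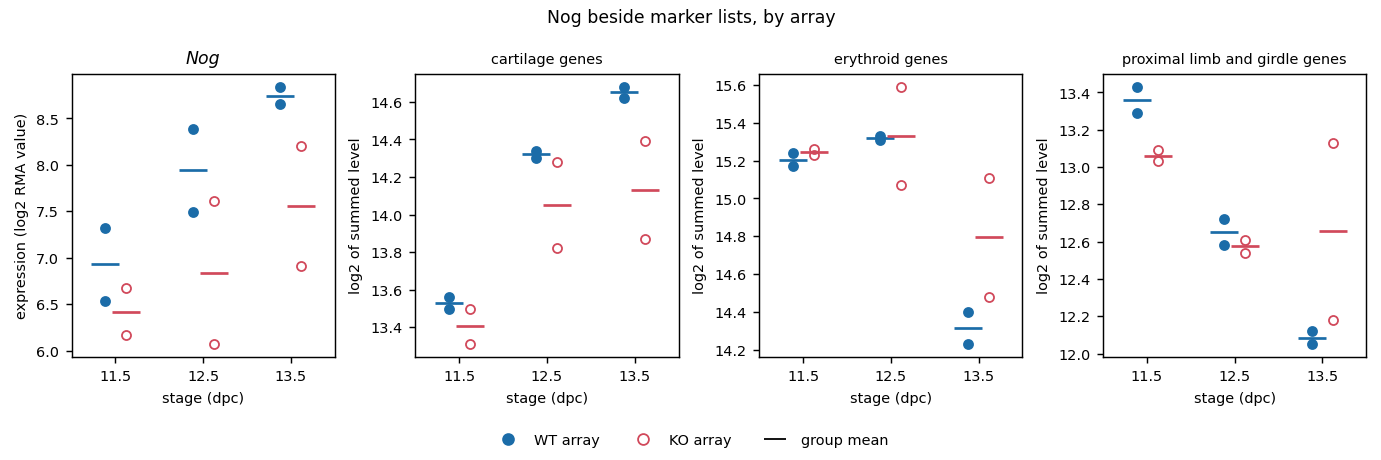
Nog (log2 RMA value) beside the summed levels (log2) of cartilage, erythroid, and proximal limb and girdle marker genes on each array, against stage (dpc), with filled points for WT, open points for KO and lines at the means of 2 arrays. The 13.5 dpc KO array with Nog at 6.91 is the one with the cartilage sum at 13.87, the erythroid sum at 15.11 and the proximal sum at 13.13.

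Grem1 (1425357_a_at) encodes Gremlin, the antagonist through which the limb mesenchyme holds BMP activity down and keeps the ridge-to-Shh feedback running. It lay at 7.33 and 7.82 in WT and 7.43 and 7.40 in KO at 11.5 dpc. Its levels were 7.28 and 7.10 in WT and 6.15 and 6.76 in KO at 12.5 dpc, then 6.04 and 6.14 in WT and 6.25 and 7.03 in KO at 13.5 dpc. Genotypes overlapped at the first stage, KO was below WT without overlap at the second and above it without overlap at the last. The differences were -0.73 ± 0.26 at 12.5 dpc (adjusted p = 0.346) and 0.55 ± 0.26 at 13.5 dpc (adjusted p = 0.863). The change of the genotype difference between these stages was 1.29 ± 0.37 (limma interaction, adjusted p = 0.468). Over 20 alternatives that change stayed between 0.90 and 1.67 and never passed (adjusted p from 0.0924 to 0.976). Part of the Grem1 range lies close to the median of all values, where array signals are compressed.

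Follistatin, encoded by Fst (1434458_at), binds activins and several BMPs. Fst stood at 8.38 and 7.87 in WT and 8.54 and 8.5 in KO at 11.5 dpc, 9.55 and 9.56 in WT and 10.06 and 9.32 in KO at 12.5 dpc, and 9.24 and 9.08 in WT and 9.26 and 8.78 in KO at 13.5 dpc. KO was above WT without overlap at 11.5 dpc only (0.40 ± 0.24, adjusted p = 1.0). Bmper (1429273_at), a secreted modulator that binds BMPs, had 8.41 and 8.44 in WT and 7.81 and 8.08 in KO at 11.5 dpc. Its later levels were 9.01 and 8.86 in WT and 9.30 and 8.33 in KO at 12.5 dpc, and 9.09 and 9.16 in WT and 9.09 and 8.48 in KO at 13.5 dpc. The lowest Bmper array of each stage was a KO array. The difference was -0.48 ± 0.27 at 11.5 dpc (adjusted p = 1.0) and -0.31 ± 0.16 over the stages (adjusted p = 0.768), and -0.05 without both KO arrays that stood apart. Chrd, Chrdl1, Twsg1 and Nbl1 differed by -0.23 to 0.32 at any stage, and the pseudoreceptor gene Bambi by -0.23 to 0.08.

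The separation of single arrays was also counted. At 13.5 dpc both KO arrays lay below both WT arrays for 18 of 34 BMP genes (22.3% of all genes), and above them for 1, Grem1 (11.6% of all genes). The 18 took in Bmp7 and Gdf10, the receptor genes Bmpr1b, Bmpr2 and Acvr2a, Smad1, Smad4, Smad6 and Smad7, the targets Id1, Id3, Msx1 and Msx2, the antagonists and modulators Nog, Chrd, Twsg1 and Bmper, and Bambi. This count rests on 1 probe set per gene, and further probe sets of Bmpr2 and Acvr2a had the opposite sign, as given above. At 11.5 dpc 14 were lower (26.8% of all genes) and 2 higher (12.8%). At 12.5 dpc 7 were lower (19.3%) and 6 higher (15%). Over all 12 arrays 0 of 34 separated in either direction (0.104% of all genes lower, 0.0165% higher). Without both KO arrays that stood apart, which leaves 1 KO array at each later stage, 25 were lower (47.4% of all genes) and 4 higher (29.1%) at 13.5 dpc, and 10 lower (36.5%) and 16 higher (34.9%) at 12.5 dpc.

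Whether the genotype difference itself changed with stage was tested as an interaction. None of the 34 BMP genes passed for any pair of stages (background 0% of all genes in each). Unadjusted p under 0.05 was reached by 0 genes between 11.5 and 12.5 dpc (6.22% of all genes) and by 4 between 12.5 and 13.5 dpc (8.5% of all genes), Grem1 upwards and Bmpr1b, Smad1 and Msx1 downwards. Between 11.5 and 13.5 dpc it was reached by 2 (2.07% of all genes), Bmpr1b and Msx1. Bmpr1b had -0.65 ± 0.13 for the longest interval (adjusted p = 0.993) and Msx1 -0.53 ± 0.22 (adjusted p = 1.0). The other Bmpr1b probe sets had -0.08 ± 0.24 and -0.30 ± 0.29 for the longest interval. Between 12.5 and 13.5 dpc they had 0.35 ± 0.24 and -0.23 ± 0.29, so the sign there differs between probe sets. From 12.5 to 13.5 dpc, 26 of 34 differences moved downwards with a median of -0.22, against 48.4% of all genes and a median of 0.009. In the interval before, 10 of 34 did (29.4%, against 47.6% of all genes), with a median of 0.06. Both intervals share the 12.5 dpc arrays. From 11.5 to 13.5 dpc 25 of 34 did (73.5%, against 47.7%), with a median of -0.09.

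With stage a part of the BMP genes passed the test, as did many genes outside the list. Between 11.5 and 12.5 dpc in WT 15 of 34 passed the test (background 19.8% of all genes). Of these 8 rose (background 6.67%), namely Fst, Bmp2, Acvr2a, Msx1, Acvr1, Bmpr1a, Bmpr1b and Id3, and 7 fell (background 13.1%), namely Bmp6, Acvr2b, Bmp4, Smad6, Smad7, Bmp7 and Smad1. By role, 4 of 6 receptors rose and 1 fell, 3 of 7 ligands fell and 1 rose, and both inhibitory Smads fell. Cartilage markers were higher at the later stage (0 of 14 lower, median 0.83) and proximal limb and girdle markers (8 of 9, median -0.83) and surface ectoderm markers (12 of 13, median -0.56) lower, and their part in the result was not tested. Stage is confounded with scan series here, as stated above. The background shares take in dim genes, which passed less often, whereas only 2 of the BMP genes lay below the median of all values. With dim genes left out, 3410 of 11544 genes passed in this interval and 4236 from 12.5 to 13.5 dpc in WT. In KO the numbers were 3224 and 3343 of 11544.

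Fst had the largest rise, from 8.38 and 7.87 to 9.55 and 9.56 in WT (1.43 ± 0.24, adjusted p = 0.00409), and passed in 22 of 22 alternatives. Bmp2 stood at 8.63 and 8.43 at 11.5 dpc, 9.22 and 9.15 at 12.5 dpc and 9.25 and 9.08 at 13.5 dpc in WT, a rise of 0.65 ± 0.19 in the earlier interval (adjusted p = 0.0338). In KO it had 8.14 and 8.36, 9.35 and 9.11, and 9.17 and 8.53. Bmp4, the other main ligand of the ridge and mesenchyme, went the opposite way, from 10.58 and 10.63 to 10.04 and 9.78 and then 9.77 and 9.65 in WT (-0.69 ± 0.22, adjusted p = 0.0469). KO arrays of Bmp4 read 10.52 and 10.54, 9.46 and 9.80, and 9.59 and 10.38. The fall of Bmp6 was from 6.28 and 6.31 to 5.13 and 5.35 in WT (-1.05 ± 0.27, adjusted p = 0.0226), which takes it below the median of all values, and its 13.5 dpc levels were 5.86 and 5.90. In KO Bmp6 had 6.26 and 6.54 at 11.5 dpc and 5.49 and 5.92 at 13.5 dpc. The 11.5 and 12.5 dpc arrays of these 4 genes did not overlap in WT.

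The activin type receptors moved in different directions. Acvr2a (1437382_at) rose from 9.38 and 9.48 to 10.03 and 9.89 in WT (0.53 ± 0.10, adjusted p = 0.00629), while Acvr2b fell (-1.01 ± 0.18, adjusted p = 0.00551). KO arrays of Acvr2a had 9.29 and 9.35, 10.0 and 9.83, and 9.58 and 9.44. The other 2 Acvr2b probe sets had -0.44 and -0.26 and did not pass. Acvr1 (1448460_at), the type I receptor also called ALK2, rose from 9.36 and 9.16 to 9.77 and 9.74 in WT (0.49 ± 0.12, adjusted p = 0.0199). KO arrays of Acvr1 went from 9.23 and 9.14 to 10.08 and 9.79, and stood at 8.99 and 9.13 at 13.5 dpc. Smad6 fell by 0.62 ± 0.09 (adjusted p = 0.00243). Smad7 (1423389_at) fell from 10.15 and 9.90 to 9.50 and 9.60 (-0.47 ± 0.13, adjusted p = 0.0326), with KO arrays at 10.0 and 10.09 and then 9.41 and 9.78. Msx1 rose by 0.51 ± 0.16 (adjusted p = 0.0435).

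From 12.5 to 13.5 dpc in WT 12 of 34 BMP genes passed (background 25.3% of all genes). The 7 that rose (background 14.5%) were Gdf10, Nbl1, Smad7, Bmp7, Msx1, Smad6 and Smad1, and the 5 that fell (background 10.8%) were Chrdl1, Grem1, Acvr1, Acvr2a and Bmpr1a. Bmp5 and Bmpr1b did not pass on the probe set used, but dimmer probe sets of both fell past the threshold (Bmp5 -1.01 and -1.20, Bmpr1b -0.87). The Bmpr1b probe set used went the other way, from 9.23 and 9.25 to 9.51 and 9.50. The WT direction of Bmpr1b in this interval thus differs between probe sets. These changes share the 12.5 dpc arrays with those of the earlier interval, so a high or low value there enters both with opposite signs. The dissected part also differs across this interval. In WT, skeletal muscle markers were lower at 13.5 dpc for 12 of 13 genes (median -1.31), erythroid markers for 7 of 8 (median -0.87) and surface ectoderm markers for 3 of 13 (median 0.97), and their part in the result was not tested.

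Gdf10 had the largest rise (1.41 ± 0.37, adjusted p = 0.0211), with no overlap between the WT arrays of 12.5 and 13.5 dpc. Nbl1 (1448428_at), which encodes the DAN family antagonist DAN, rose from 9.26 and 9.51 to 10.38 and 10.34 in WT (0.98 ± 0.19, adjusted p = 0.00613). At 11.5 dpc it had stood at 9.43 and 9.21, and KO arrays of Nbl1 had 9.43 and 9.77, 9.90 and 9.51, and 10.46 and 9.93. Smad7 rose to 10.34 and 10.44 (0.84 ± 0.13, adjusted p = 0.00215), with KO at 10.28 and 10.16. Bmp7 (1435479_at), a ligand of ridge and interdigital tissue, rose from 9.11 and 8.94 to 9.88 and 9.81 in WT (0.82 ± 0.11, adjusted p = 0.00113), after 9.47 and 9.34 at 11.5 dpc. Its KO arrays had 9.44 and 9.59, 9.19 and 9.03, and 9.70 and 9.52, and its other 2 probe sets also rose from 12.5 to 13.5 dpc. The rise of Msx1 was also 0.82 (± 0.16, adjusted p = 0.00508). Msx1 and Bmp7 passed here in all alternatives (22 of 22 and 23 of 23).

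Among genes that fell, Chrdl1 (1421295_at), a Chordin-like antagonist, went from 8.18 and 8.23 to 7.04 and 7.12 in WT (-1.13 ± 0.16, adjusted p = 0.00136). It had 7.92 and 7.95 at 11.5 dpc, and KO arrays read 7.68 and 8.01, 8.04 and 7.99, and 6.97 and 7.50. Grem1 fell by 1.10 ± 0.26 in WT (adjusted p = 0.013), with both 13.5 dpc arrays below both 12.5 dpc arrays. Acvr1 returned to 9.23 and 9.06 (-0.61 ± 0.12, adjusted p = 0.00613) and Acvr2a to 9.59 and 9.66 (-0.33 ± 0.10, adjusted p = 0.0341). Bmpr1a (1425492_at), a type I receptor needed throughout limb mesenchyme, had 10.90 and 10.91 at 11.5 dpc, 11.39 and 11.35 at 12.5 dpc and 11.02 and 11.11 at 13.5 dpc in WT (-0.30 ± 0.08 in the later interval, adjusted p = 0.0231). KO arrays of Bmpr1a had 10.84 and 10.84, 11.37 and 11.30, and 11.09 and 11.15. Of its 5 other probe sets, 2 passed in the same direction and 1 had the opposite sign.

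**Figure D4:**
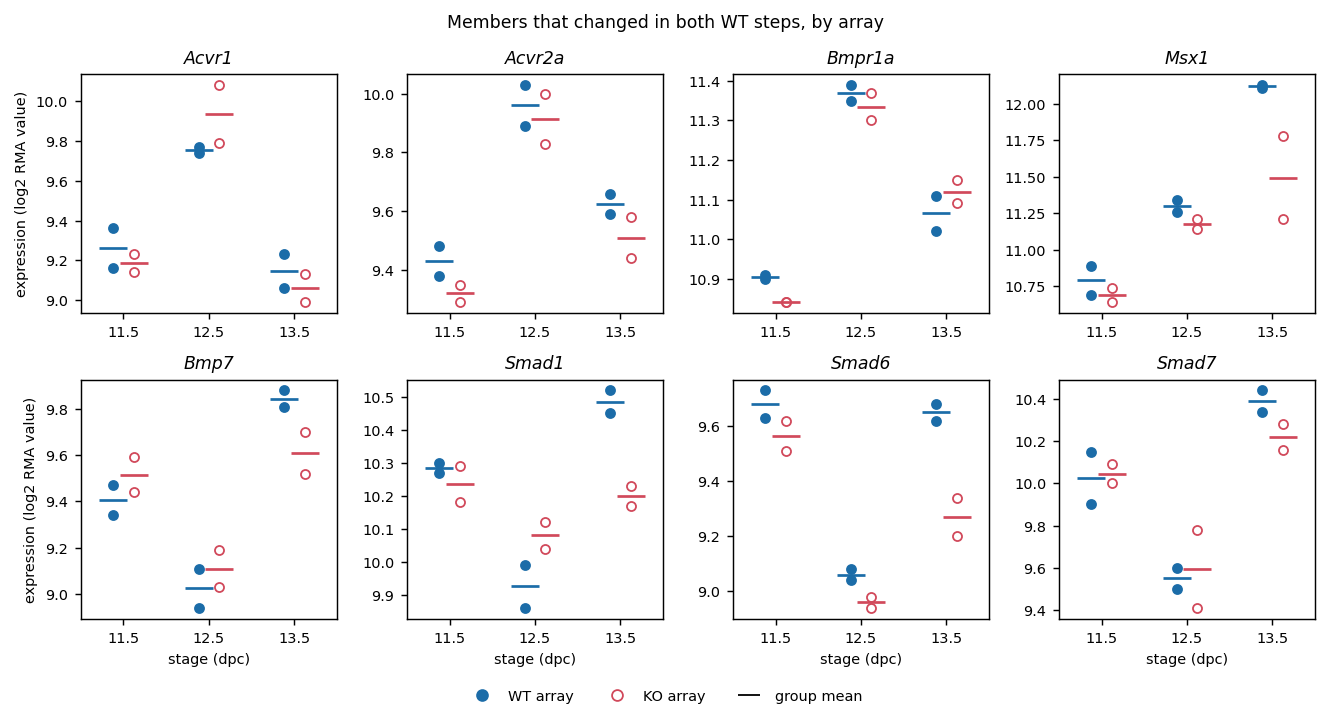
Level of the 8 BMP signalling genes that passed the test in both WT intervals, on each array (log2 RMA value, vertical axis, its own scale in each panel) against stage (dpc), with filled points for WT, open points for KO and lines at the means of 2 arrays. On the probe sets plotted, Acvr1, Acvr2a and Bmpr1a are highest at 12.5 dpc in WT. Bmp7, Smad1, Smad6 and Smad7 are lowest there, and Msx1 rises in both intervals. The other 2 Smad1 probe sets, the second of Smad7 and a dimmer Bmpr1a probe set turn the opposite way.

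In 8 of the 34 genes both WT intervals passed. The receptor genes Acvr1, Acvr2a and Bmpr1a rose and then fell (3 genes, background 3.59% of all genes) on the probe sets used. The other Acvr2a probe set also passed in both intervals (0.46, then -0.44). The other Acvr1 probe sets passed the rise (0.41 and 0.48) but not the fall (-0.21 and -0.22, limma adjusted p = 0.238 and 0.215). None of the other Bmpr1a probe sets passed the rise (-0.17 to 0.33, limma adjusted p = 0.122 or more). A dimmer Bmpr1a probe set had the opposite sign in both intervals (-0.17, then 0.13). Bmp7, Smad1, Smad6 and Smad7 fell and then rose (4 genes, background 7.14%), of which Smad1 did so on 1 of its 3 probe sets. The other Smad1 probe sets, both brighter than the median value, ran with opposite signs, 0.23 ± 0.11 then -0.07 ± 0.11 on one and 0.38 ± 0.13 then -0.07 ± 0.13 on the dimmer of them, none past the threshold in WT. In KO the dimmer one passed with those signs (0.45 ± 0.13, adjusted p = 0.0391, then -0.44 ± 0.13, adjusted p = 0.0443), so the direction of Smad1 with stage differs between its probe sets. The second Smad7 probe set, dimmer, had 0.04 and -0.08 in WT, also opposite in sign to the main one. Msx1 rose in both (1 gene, background 0.0989%), and 0 fell in both (background 0.0989%). The earlier rise of Msx1 ran from 0.08 to 0.61 over 22 alternatives, and from 0.41 to 0.61 on leaving out single arrays. Because 12.5 dpc had its own scan series, a level that is high or low there cannot be told apart from that series.

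BMP genes also passed the test between stages in KO limbs. From 11.5 to 12.5 dpc 13 of 34 passed (background 16.8% of all genes), 8 upwards (background 6.22%: Fst, Bmp2, Acvr1, Acvr2a, Bambi, Bmpr2, Bmpr1a and Id3) and 5 downwards (background 10.6%: Grem1, Bmp4, Smad6, Smad7 and Bmp7). Fst rose by 1.17 ± 0.24 (adjusted p = 0.0109) and Grem1 fell by 0.96 ± 0.26 (adjusted p = 0.0315). From 12.5 to 13.5 dpc 7 passed (background 18.6%), with Smad7, Bmp7 and Smad6 higher (background 10.4%) and Acvr1, Chrdl1, Acvr2a and Bambi lower (background 8.22%). The largest were Acvr1 (-0.87 ± 0.12, adjusted p = 0.00213) and Chrdl1 (-0.78 ± 0.16, adjusted p = 0.0101). The other Acvr1 probe sets had 0.22 and 0.06 in the earlier KO interval and -0.22 and 0.13 in the later, none past the threshold. Msx1 had 0.32 ± 0.16 in KO (adjusted p = 0.177), Gdf10 had 0.55 ± 0.37 (adjusted p = 0.326) and Grem1 had 0.19 ± 0.26 (adjusted p = 0.649). With all arrays, 3 genes rose and then fell in KO (Acvr1, Acvr2a and Bambi, background 4.05%). Another 3 fell and then rose (Bmp7, Smad6 and Smad7, background 5.72%), and 0 rose or fell in both intervals (background 0.011% each). These patterns depended on both KO arrays that stood apart, and Bambi was in none of them on leaving those out. On the KO arrays then left, Msx1 stood at 10.64 and 10.74 at 11.5 dpc, 11.14 at 12.5 dpc and 11.78 at 13.5 dpc. Without both KO arrays that stood apart, 20 passed in the earlier KO interval (25% of all genes) and 11 in the later (24.7% of all genes), and fall followed by rise held for 1 gene, Smad7 (5.66% of all genes). Calls over all genes rose with this setting too.

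WT and KO share no array, so their changes can be set side by side, although each stage's arrays share a scan series. From 11.5 to 12.5 dpc 30 of 34 BMP genes had the same sign in both genotypes (88.2%, against 75.3% of all genes), with Pearson's r = 0.91 across the 34 genes (0.78 across all genes). From 12.5 to 13.5 dpc 22 of 34 did (64.7%, against 76.1%), with r = 0.74 (0.77 across all genes). Genes are not independent replicates, and these correlations are descriptions.

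**Figure D5:**
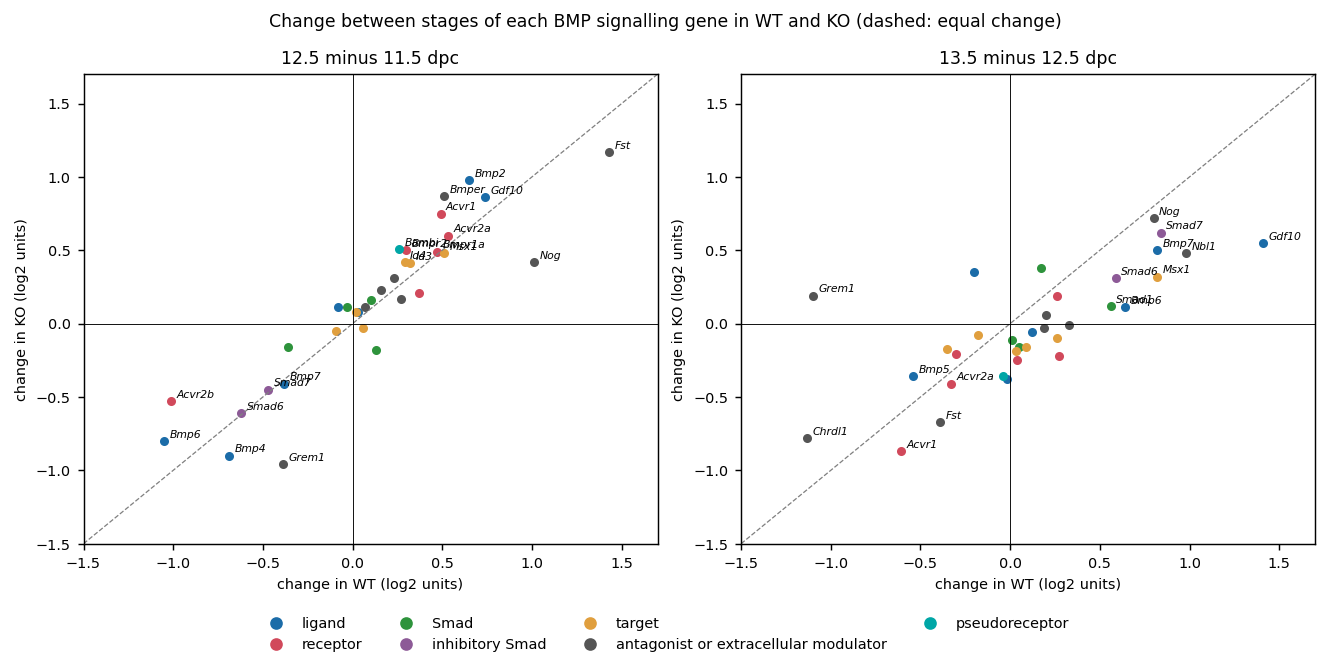
Change between stages in KO (log2 units, vertical axis) against the change in WT (log2 units, horizontal axis) for the 34 measured BMP signalling genes, from 11.5 to 12.5 dpc (left) and 12.5 to 13.5 dpc (right), coloured by role, with a dashed line of equal change. Points follow the line on the left (30 of 34 with the same sign), and on the right Grem1 lies apart at -1.10 in WT and 0.19 in KO.

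A further list of 65 BMP pathway genes outside the 35 (other ligands, antagonists, co-receptors, Smad partners and target genes) had 57 measured members. None passed between genotypes at any stage, over the stages or in any interaction. The unadjusted p was under 0.05 for 7 over the stages, 3 at 11.5 dpc, 8 at 12.5 dpc and 7 at 13.5 dpc, against 6.87%, 1.64%, 10.9% and 5.9% of all genes. Over the stages 40 of 57 lay below 0 with a median of -0.03. Gdf5, the joint interzone ligand that signals through Bmpr1b, had -0.92 ± 0.20 over the stages (adjusted p = 0.203), -1.04 ± 0.34 at 12.5 dpc and -1.11 ± 0.34 at 13.5 dpc. Gata2 had -0.60 ± 0.17 at 13.5 dpc, Tbx2 had -0.60 ± 0.14 at 11.5 dpc, and the antagonist gene Sostdc1 had 0.53 ± 0.14 at 12.5 dpc. With stage, 5 of 57 rose (6.67% of all genes) and 10 fell (13.1%) from 11.5 to 12.5 dpc in WT, and 12 rose (14.5%) and 3 fell (10.8%) from 12.5 to 13.5 dpc. In the earlier interval the antagonist gene Sost fell by 1.47 ± 0.38 (adjusted p = 0.0227), Tbx2 by 1.17 ± 0.14 (adjusted p = 0.00135), while Gdf5 rose by 1.22 ± 0.34 (adjusted p = 0.0325) and the BMP-binding Crim1 by 1.08 ± 0.17 (adjusted p = 0.00299). In the later interval the co-receptor gene Hjv fell by 1.72 ± 0.34 (adjusted p = 0.0058) and Tbx3 by 1.08 ± 0.12 (adjusted p = 0.00056), while the secreted protease gene Htra1 rose by 1.62 ± 0.26 (adjusted p = 0.00234) and Dlx3 by 1.39 ± 0.13 (adjusted p = 0.00029). In KO 3 rose (6.22% of all genes) and 7 fell (10.6%), then 9 rose (10.4%) and 4 fell (8.22%).

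Other probe sets gave a check of the single probe set used for each gene. The array held 38 further probe sets for 19 of the genes, 31 of them above the median of all values. For KO minus WT over the stages 26 of 38 had the sign of the main probe set (21 of the 31 brighter ones), and 0 passed. At 13.5 dpc 25 of 38 did (22 of 31), at 12.5 dpc 18 of 38 and at 11.5 dpc 21 of 38. For the WT intervals 24 and 20 of 38 shared the sign, with 7 and 12 past the threshold over all probe sets.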

How the data were processed

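Total RNA of the 12 limb pools was hybridised to Affymetrix arrays. The authors deposited log2 values of 45101 probe sets, which the submitters' processing notes credit to RMA (no version is given in the sources used here). The method corrects background, normalizes between arrays and summarises probes, which compresses low signals. Control probe sets (64) were left out. The platform annotation named 1 gene for 34945 probe sets, several for 932 and none for 9160, the last 2 kinds being untested. The brightest probe set per gene gave 18193 genes.

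limma 3.58.1 (R 4.3.3) fitted a mean for each of the 6 groups to all arrays (lmFit, eBayes; 6 residual and 4.22 prior degrees of freedom), two-sided, with Benjamini-Hochberg adjustment over all genes at 0.05. Errors are SEs of this fit. The number of arrays limits the precision.

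The BMP genes, the further pathway and marker lists and the alternatives were chosen with earlier results of these data known. Named with values on every array were the 4 largest KO minus WT differences over the stages, the 3 largest at each stage, and up to 5 per direction past the threshold in each WT interval. Of the further list, up to 4 past the threshold, or else the 2 largest differences, were named. Bmpr1b, Smad6, Smad1 and Smad9, other genes with small unadjusted p, and those given by range or role were added after their values were seen. Alternatives were a replicate block, array quality weights, other prior, another normalization, a filter on dim genes, other probe sets, fits of only the arrays compared, and leaving out each array.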

Additional observations from a re-analysis of the deposited data

How the results depend on the processing

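The counts of BMP genes past the threshold depended on the settings. Leaving out 1 array at a time gave 0 to 2 for KO minus WT over the stages (2 without KO replicate 1 of 12.5 dpc, Bmpr1b and Nog) and 0 to 1 at 13.5 dpc (Bmpr1b without either KO array of 12.5 dpc, Msx1 without KO replicate 1 of 13.5 dpc). It gave 4 to 16 for WT from 11.5 to 12.5 dpc (5 and 4 without WT replicate 1 or 2 of 11.5 dpc, 6 without either WT array of 12.5 dpc, 9 without either of 13.5 dpc), 7 to 15 for WT from 12.5 to 13.5 dpc (7 without WT replicate 2 of 13.5 dpc) and 3 to 17 for KO from 11.5 to 12.5 dpc (4 and 3 without KO replicate 1 or 2 of 11.5 dpc). Where this left 1 array in a group, it was assumed to vary like the others. With both KO replicate 2 arrays of 12.5 and 13.5 dpc left out, an alternative chosen with the data seen, 1 gene passed for KO minus WT at 12.5 dpc, 20 and 11 in the KO intervals, non-overlapping higher genes numbered 16 at 12.5 dpc and 4 at 13.5 dpc, and 1 gene fell and then rose in KO. The intensity trend with robust prior gave 1 at 13.5 dpc (Bmpr1b). Array quality weights gave 1 for KO from 12.5 to 13.5 dpc, and fits of only the arrays compared gave 0 in both KO intervals. The cause was not tested.

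The labels do not say that the replicate numbers pair the samples. Correlations of deviations were 0.187, -0.12 and -0.0869 at the 3 stages, which cannot decide whether pools were paired. With the replicate number as a block, 2 and 10 genes passed in the WT intervals, 0 and 2 in the KO intervals, and 0 in each KO minus WT comparison. KO minus WT at 11.5 dpc and the 3 interactions gave 0 under each alternative run.

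Among the results named with values on every array, and Smad6, Bmpr1b and Grem1 as named above, signs turned in 6 instances. The signs of further probe sets for the other BMP genes, Smad1 among them, are counted in the report and are not part of these 6. Gdf10 over the stages became 0.05 without both KO replicate 2 arrays. Other probe sets gave -0.17 and -0.04 for Acvr2b at 12.5 dpc, 0.04 and -0.08 for Smad7 in the earlier and later WT interval, and 0.13 for Bmpr1a in the later. Of the WT changes named, Msx1, Bmp4 and Smad7 from 11.5 to 12.5 dpc passed in 10 of 22, 10 of 21 and 10 of 22 alternatives.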
